A study of Homo sapiens with 6 samples.

Results

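The genes described here are 9 parts of the switch that lets a cell leave G1. They are the D-type cyclins CCND1, CCND2 and CCND3, the cyclin-dependent kinases CDK2, CDK4 and CDK6, and the retinoblastoma family RB1, RBL1 and RBL2. They were taken by gene name, not by their values, from tables that listed 58735 genes, and 8 of the 9 had FPKM high enough to be tested. The cells were SKOV3, an established human ovarian carcinoma line. The siHJURP group had received an siRNA against HJURP, the chaperone that places the centromeric histone CENPA, and the NC group a negative control siRNA. RNA was extracted with Trizol 24 h after transfection in both groups, and each group had 3 libraries. The labels do not settle whether the 3 came from separate cultures, so a p-value here speaks of the variation among these libraries, part of which may be technical.

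D cyclins are made in response to growth signals and bind CDK4 and CDK6. The active kinases phosphorylate RB1 and its relatives p107 (RBL1) and p130 (RBL2), which otherwise hold E2F transcription factors and their target genes silent. Cyclin E with CDK2 adds further phosphates, and INK4 and CIP/KIP proteins hold these kinases in check. Much of this control acts on proteins, through phosphorylation and degradation, and is not seen in transcript levels.

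Values are the authors' FPKM, which scale reads by gene length and library size, so levels can be compared roughly between genes. Whole reads could be worked back from them, and they summed to 17524772 to 18027065 per siHJURP library and 17116487 to 17625638 per NC library. HJURP itself, the siRNA's target, had 8.66, 8.64 and 8.65 FPKM in siHJURP cells, against 29.2, 29.02 and 30.0 FPKM in NC cells. That is 70.6% less in the mean (log2 fold change −1.66, SE 0.034, adjusted p = 1.41e-06, limma). The libraries labelled siHJURP 1 and 3 stood apart in 8 interferon-stimulated genes, which summed to 497 and 700.4 FPKM there and to 108 FPKM in siHJURP replicate 2, against 92.2 to 110.2 FPKM in NC libraries. Of 10 SKOV3 and epithelial markers, 7 were above a mean of 1 FPKM, while EPCAM, MUC16 and CDH1 were below it. Of those 7, 5 fell and 1 rose (median log2 fold change −0.35). SOX17 (−0.93, adjusted p = 4.42e-05, limma) and KRT18 (−0.85, adjusted p = 0.00057) were among those that fell. ERBB2 rose (0.37, adjusted p = 0.00299), and CDH2 did not pass (0.02, adjusted p = 0.732). What part these changes have in the results below was not tested. Of 14 markers of blood, endothelial, stromal and other cells, 1 (COL1A1) reached that level. Their sum was 11.3 to 15.7 FPKM in siHJURP and 13.4 to 17.0 FPKM in NC libraries, and 4 to 6 of them were at 0 in each library.

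Of the 8 G1 genes tested, 5 fell in siHJURP cells (CCND1, CCND3, CDK2, CDK6 and RB1), none rose, and 3 did not pass the test (CDK4, RBL1 and RBL2). The test was limma on log2(FPKM + 1), with p-values adjusted by Benjamini-Hochberg over all 13365 genes with a mean of at least 1 FPKM and a threshold of 0.05. Changes were common: 37.9% of all tested genes were called, 20.3% lower and 17.6% higher in siHJURP, so that 5 of 8 is read against a background in which about 1 gene in 5 fell. Calls were more frequent in a separate fit of only the genes with a mean of at least 5 FPKM, to which all 8 belong. In that fit, adjusted over its own 7635 genes, 3855 were called, 2192 lower and 1663 higher in siHJURP. The median log2 fold change of the 8 was −0.20, against −0.01 over all genes tested, and CCND1 differed far more than the others. The 3 siHJURP values lay clear of the 3 NC values for those 5 genes, as they did for 52.2% of all tested genes. In bulk RNA, fewer cells in one phase of the cycle and less RNA per cell cannot be told apart.

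**Figure D1:**
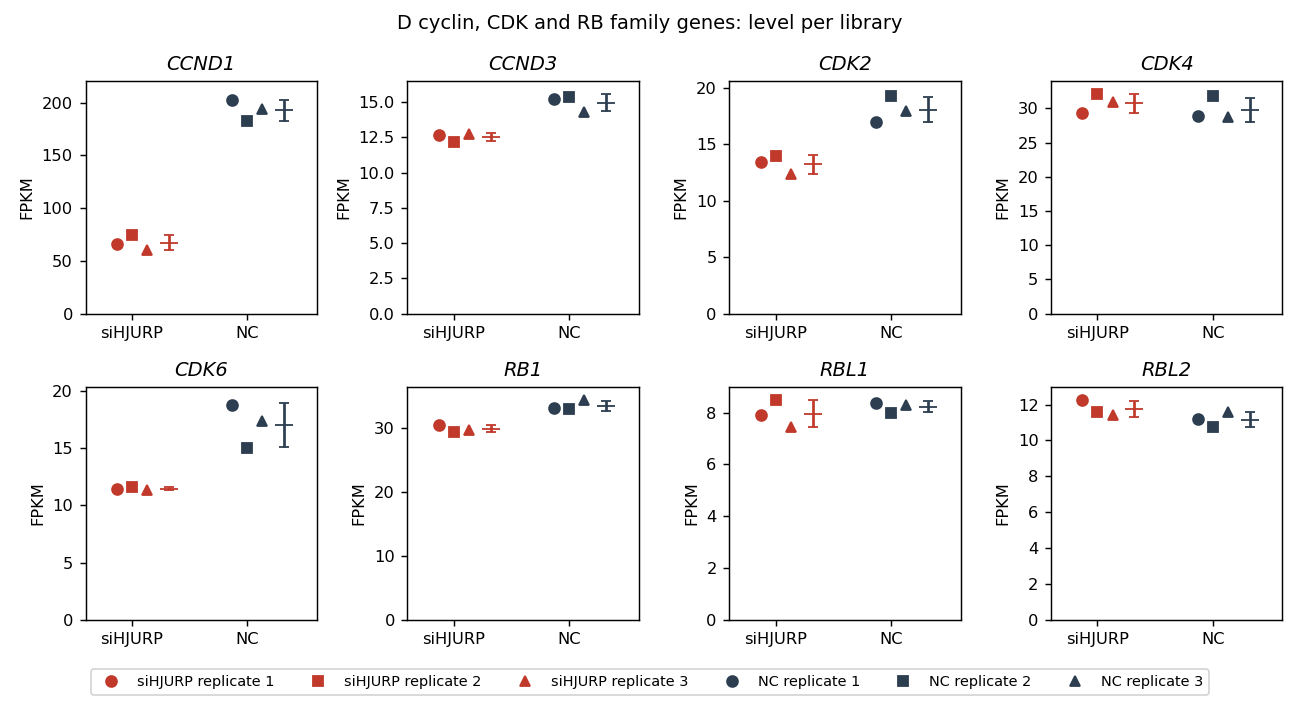
Level of each of the 8 tested G1 genes in FPKM (vertical axis, from 0) in 3 siHJURP and 3 NC libraries. Points are libraries, the marker shape gives the replicate number, and the bar beside them is the mean with 1 SD. CCND1 lies at 60.8 to 74.7 FPKM in siHJURP and 183 to 202 FPKM in NC libraries, while the CDK4, RBL1 and RBL2 points of the groups overlap.

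Among the D cyclins, CCND1 carried most of the change. Cyclin D1 (CCND1, ENSG00000110092, chr11:69641087-69654474, plus strand, hg38) is the D cyclin most often overproduced in carcinomas. It had 66.3, 74.7 and 60.8 FPKM in siHJURP cells, against 202, 183 and 194 FPKM in NC cells. The highest siHJURP library was far below the lowest NC library, and the libraries of a group differed little. CCND1 averaged 67.3 ± 7.0 FPKM in siHJURP cells and 193 ± 9.9 FPKM in NC cells (SD, n = 3 each), 2.87-fold lower with siHJURP. The log2 fold change was −1.51 (SE 0.078, 95% interval −1.69 to −1.33, adjusted p = 3.23e-05, limma), the 24th lowest of 13365 genes. Only 0.254% of the genes tested changed by a larger size in either direction, and the median size among called genes was 0.33. The rank, the share and the median are on log2(FPKM + 1), which understates the change of low genes.

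The CCND1 difference rested on deep coverage, 5287 to 6649 in siHJURP and 15352 to 16739 in NC libraries. It did not depend on the 2 siHJURP libraries that stood apart: siHJURP replicate 2, in which 3 of the 8 interferon-stimulated genes exceeded the highest NC library and their sum lay within the NC range, had 74.7 FPKM, and CCND1 was called under all 19 alternatives (log2 fold change −1.59 to −1.36). The last 1399 bases of the gene overlap LTO1 on the opposite strand. LTO1 was lower as well, at 4.34 ± 0.073 FPKM in siHJURP and 5.31 ± 0.18 FPKM in NC cells (SD, n = 3 each; log2 fold change −0.24, adjusted p = 0.00668, limma). Whether counting used strand is not given in the sources used here, so reads in the shared stretch cannot be assigned to either gene.

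Cyclin D3 (CCND3, ENSG00000112576, chr6:41934933-42050357, minus strand), the D cyclin best known from lymphocytes, fell much less. It had 12.7, 12.2 and 12.7 FPKM in siHJURP cells, against 15.2, 15.4 and 14.3 FPKM in NC cells, with no overlap. The mean fell by 16.2% (log2 fold change −0.24, SE 0.043, adjusted p = 0.00503, limma). Cyclin D2 (CCND2, ENSG00000118971, chr12:4273772-4305350) had 0 reads in each of the 6 libraries and was not tested. A count of 0 allows up to 3 reads, which for this gene is 0.0227 to 0.0233 FPKM in siHJURP and 0.0241 to 0.0249 FPKM in NC libraries, counting error only. AC008012.1, on the same strand, covers all 31579 bases of CCND2 and also had a mean of 0 FPKM in both groups. How reads shared between genes were counted is not known here, so the 0 does not establish that CCND2 transcripts were absent.

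RefSeq promoter windows (GRCh38.p14, 250 bases before to 50 after a start site) were at hand for 6 of the 9 genes, 10 windows in all. CCND1, CCND2 and CDK2 had none. The only RB1 window (chr13:48476200-48476499) lies inside the gene, which begins at base 48303726, so no window covers the RB1 gene start. Windows are shown where members of one family moved differently, although no CCND1 window could be set beside that of CCND3. For CCND3, the window below holds 11 of the 23 GENCODE 29 transcript starts of the gene within 50 bases of its own. Capitals mark the GC box, GGGCGG on either strand (CCGCCC when read on the other), which is in 45.0% of 35116 RefSeq promoter windows. It occurs 5 times here, and 3 or more times in 15.8% of all windows. The other CCND3 windows, chr6:41941759-41942058 and chr6:41939156-41939455, hold 4 and 0 GC boxes.
CCND3 chr6:42048639-42048938, minus strand: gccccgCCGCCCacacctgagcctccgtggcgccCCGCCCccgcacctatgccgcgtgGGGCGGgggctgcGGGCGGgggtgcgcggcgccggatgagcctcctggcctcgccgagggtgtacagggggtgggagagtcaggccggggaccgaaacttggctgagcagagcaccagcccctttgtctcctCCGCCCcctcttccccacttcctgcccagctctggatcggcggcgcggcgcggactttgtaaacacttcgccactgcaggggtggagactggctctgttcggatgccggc

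CDK6 and CDK2 fell, and CDK4 did not pass the test. CDK6 (ENSG00000105810, chr7:92604921-92836594, minus strand), a partner of the D cyclins, had 11.4, 11.6 and 11.3 FPKM in siHJURP cells, against 18.7, 15.0 and 17.4 FPKM in NC cells. The 3 siHJURP libraries were nearly alike, and the NC libraries spread more widely above them. The means were 11.5 ± 0.13 FPKM in siHJURP and 17.0 ± 1.9 FPKM in NC cells (SD, n = 3 each), and CDK6 fell by 32.8% (log2 fold change −0.53, SE 0.076, adjusted p = 0.00198, limma).

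CDK2 (ENSG00000123374, chr12:55966769-55972784, plus strand), which works with cyclins E and A, had 13.4, 13.9 and 12.3 FPKM in siHJURP cells, against 17.0, 19.3 and 17.9 FPKM in NC cells. The groups did not overlap. CDK2 averaged 13.2 ± 0.81 FPKM in siHJURP and 18.1 ± 1.1 FPKM in NC cells (SD, n = 3 each; log2 fold change −0.42, SE 0.061, adjusted p = 0.00202, limma). PMEL covers CDK2 on the opposite strand and was at 0.484 ± 0.061 FPKM in siHJURP and 0.324 ± 0.072 FPKM in NC cells, below the level tested.

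CDK4 (ENSG00000135446, chr12:57747727-57756013, minus strand), the other kinase of the D cyclins, had 29.3, 32.1 and 30.9 FPKM in siHJURP cells, against 28.8, 31.8 and 28.8 FPKM in NC cells. The libraries of the groups were interleaved. The means were 30.8 ± 1.4 FPKM in siHJURP and 29.8 ± 1.8 FPKM in NC cells (SD, n = 3 each; log2 fold change 0.04, adjusted p = 0.566, limma). The 95% interval of −0.09 to 0.17 does not reach the CDK6 or CDK2 value. Its neighbours TSPAN31 and MARCH9, which overlap its ends on the other strand, did not pass the test either (log2 fold changes 0.12 and 0.23, adjusted p = 0.155 and 0.169, limma).

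The promoter windows of both D cyclin kinases are shown because one gene fell and the other did not. Capitals mark GC boxes as above and the E-box CACGTG, the same on both strands, a motif added after the values were seen. The CDK4 window has 3 E-boxes, 216, 196 and 101 bases before the start, and 3 GC boxes; 7.26% of all windows hold an E-box and 0.094% hold 3 or more. CDK6 has 2 windows, each with 1 of its 5 GENCODE 29 transcript starts within 50 bases. The one shown has 3 GC boxes and 1 E-box, 30 bases after the start, and the other (chr7:92833910-92834209) has neither motif. These are matches of letters, not measured binding sites.
CDK4 chr12:57752261-57752560, minus strand: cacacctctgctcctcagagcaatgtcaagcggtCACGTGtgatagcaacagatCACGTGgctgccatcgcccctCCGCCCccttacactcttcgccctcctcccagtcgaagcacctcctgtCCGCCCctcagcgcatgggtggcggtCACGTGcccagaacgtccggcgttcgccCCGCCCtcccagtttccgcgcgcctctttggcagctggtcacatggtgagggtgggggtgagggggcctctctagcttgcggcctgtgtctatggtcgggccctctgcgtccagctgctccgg
CDK6 chr7:92836524-92836823, minus strand: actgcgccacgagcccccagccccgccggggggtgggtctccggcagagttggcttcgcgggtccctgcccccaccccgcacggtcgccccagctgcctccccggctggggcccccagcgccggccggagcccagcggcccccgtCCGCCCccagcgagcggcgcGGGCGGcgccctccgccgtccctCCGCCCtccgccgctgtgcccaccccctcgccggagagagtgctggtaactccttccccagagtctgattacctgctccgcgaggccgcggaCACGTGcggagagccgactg

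In the retinoblastoma family RB1 was slightly lower and its relatives did not pass the test. RB1 (ENSG00000139687, chr13:48303726-48599436, plus strand), the tumour suppressor that binds the activating E2Fs, had 30.5, 29.4 and 29.7 FPKM in siHJURP cells, against 33.2, 33.0 and 34.4 FPKM in NC cells. The groups did not overlap, but they lay close together. RB1 averaged 29.9 ± 0.58 FPKM in siHJURP and 33.5 ± 0.78 FPKM in NC cells (SD, n = 3 each; log2 fold change −0.16, SE 0.035, adjusted p = 0.0116, limma). This call depends on how libraries are scaled: it was lost with TPM (−0.10, adjusted p = 0.073), quantile normalization (−0.10, 0.0845) and voom on whole reads (−0.11, 0.0524). RCBTB2, inside RB1 on the opposite strand, was at 4.44 ± 0.37 FPKM in siHJURP and 5.73 ± 0.18 FPKM in NC cells (log2 fold change −0.31, adjusted p = 0.00745, limma).

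p107 (RBL1, ENSG00000080839, chr20:36996349-37095995, minus strand), which represses E2F genes in cycling cells, had 7.92, 8.50 and 7.46 FPKM in siHJURP cells, against 8.38, 7.99 and 8.31 FPKM in NC cells. The groups overlapped, and the log2 fold change was −0.04 (95% interval −0.17 to 0.08, adjusted p = 0.566, limma). Its sign was positive with TPM and voom, so no direction is given. p130 (RBL2, ENSG00000103479, chr16:53433977-53491649, plus strand), the family member of resting cells, had 12.3, 11.6 and 11.4 FPKM in siHJURP cells, against 11.2, 10.8 and 11.6 FPKM in NC cells. These groups overlapped too, with a log2 fold change of 0.07 (95% interval −0.04 to 0.18, adjusted p = 0.28, limma). AKTIP, which shares 610 bases with RBL2 on the other strand, was at 5.08 ± 0.43 FPKM in siHJURP and 3.88 ± 0.18 FPKM in NC cells (log2 fold change 0.32, adjusted p = 0.00957, limma).

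The RBL1 window is shown as the only one of the 10 with a match to the E2F motif, in a gene that did not pass the test beside E2F target genes that fell, described further on. The letters searched on both strands were TTTCGCGC, TTTGGCGC, TTTCCCGC and TTTGCCGC. Capitals mark its 2 matches, 26 and 16 bases before the start; 3.31% of all windows hold at least 1 match and 0.145% at least 2. The AP-1 motif TGACTCA, the CRE motif TGACGTCA and the TATA box TATAAA matched in none of the 10 windows, against 4.95%, 1.85% and 11.5% of all windows. The CHR motif TTTGAA, in 15.2% of all windows, matched in 1 RBL2 window, 24 bases after the start.
RBL1 chr20:37095948-37096247, minus strand: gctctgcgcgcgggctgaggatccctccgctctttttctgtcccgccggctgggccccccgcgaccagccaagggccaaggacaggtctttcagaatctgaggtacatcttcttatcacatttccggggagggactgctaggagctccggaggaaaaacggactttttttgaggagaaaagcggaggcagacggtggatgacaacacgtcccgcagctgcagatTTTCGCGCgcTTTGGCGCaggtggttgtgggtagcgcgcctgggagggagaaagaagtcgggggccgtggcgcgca

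**Figure D2:**
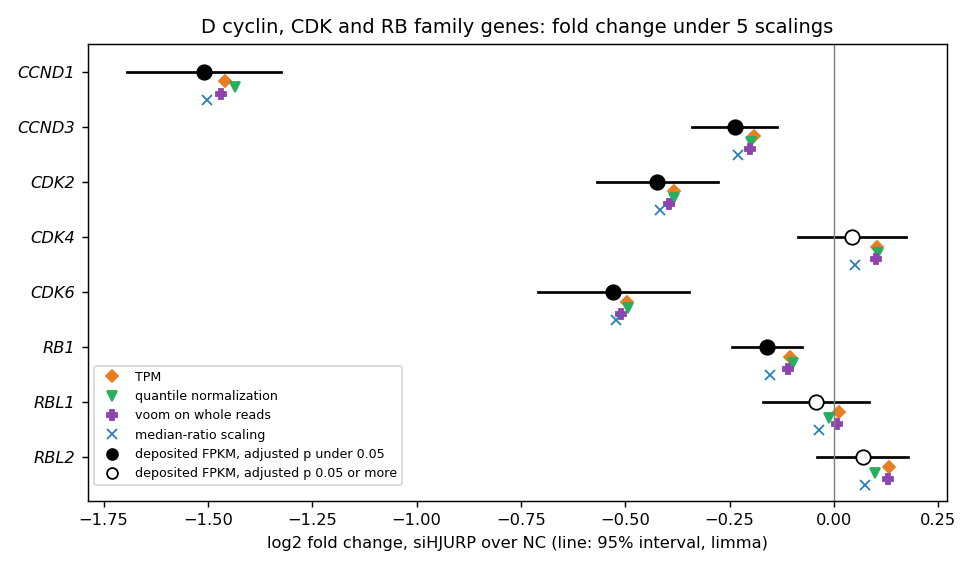
Log2 fold change, siHJURP over NC, of the 8 tested G1 genes (horizontal axis). Circles with lines are the deposited FPKM with the 95% interval from limma, filled where the adjusted p was under 0.05. Diamonds, triangles, plus signs and crosses are TPM, quantile normalization, voom on whole reads and median-ratio scaling. CCND1, CDK6, CDK2 and CCND3 stay left of 0 under all 5 scalings shown, the RB1 call does not hold under 3 of them, and RBL1 falls on both sides of 0.

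CCND1 had the highest level of the 9 in both groups, and CDK6 stood lower in the order with siHJURP. In siHJURP cells CCND1 was highest, followed by CDK4 and RB1, whose ranges overlapped. CDK2, CCND3, RBL2 and CDK6 came next, each overlapping its neighbour in that order, then RBL1 and, at 0, CCND2. In NC cells CCND1 was again highest, above 98.5% of all tested genes by its mean over both groups, followed by RB1 and then CDK4, whose ranges did not overlap. CDK2, CDK6 and CCND3 overlapped as neighbours in the NC order, with RBL2, RBL1 and CCND2 below them. In siHJURP cells CDK6 thus came after CCND3 and RBL2, with its range overlapping that of RBL2, whereas in NC cells it lay above both and clear of RBL2.

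The balance of cyclin to kinase transcripts shifted toward the kinases. Summed D cyclins came to 79.8 ± 6.7 FPKM in siHJURP and 207.8 ± 9.8 FPKM in NC cells, and CDK4 with CDK6 to 42.2 ± 1.5 FPKM in siHJURP and 46.85 ± 0.71 FPKM in NC cells (SD, n = 3 each). The ratio of D cyclin FPKM to CDK4 plus CDK6 FPKM was 1.89 ± 0.13 in siHJURP and 4.44 ± 0.18 in NC cells. This ratio serves to compare the groups and is not a count of molecules, since FPKM uses 1 length for each gene. CCND2 enters the D cyclin sums as 0, with the limit given above for reads it shares with AC008012.1. By these values CCND1 remained the main D cyclin, with 84.2 ± 1.7% of the sum in siHJURP and 92.8 ± 0.49% in NC cells. CDK6 made up 27.15 ± 0.82% of the 2 kinases in siHJURP and 36.3 ± 3.9% in NC cells. RB1 made up 60.25 ± 0.83% of the retinoblastoma family in siHJURP and 63.35 ± 0.43% in NC cells, and RBL2 23.7 ± 0.44% in siHJURP and 21.1 ± 0.28% in NC cells.

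**Figure D3:**
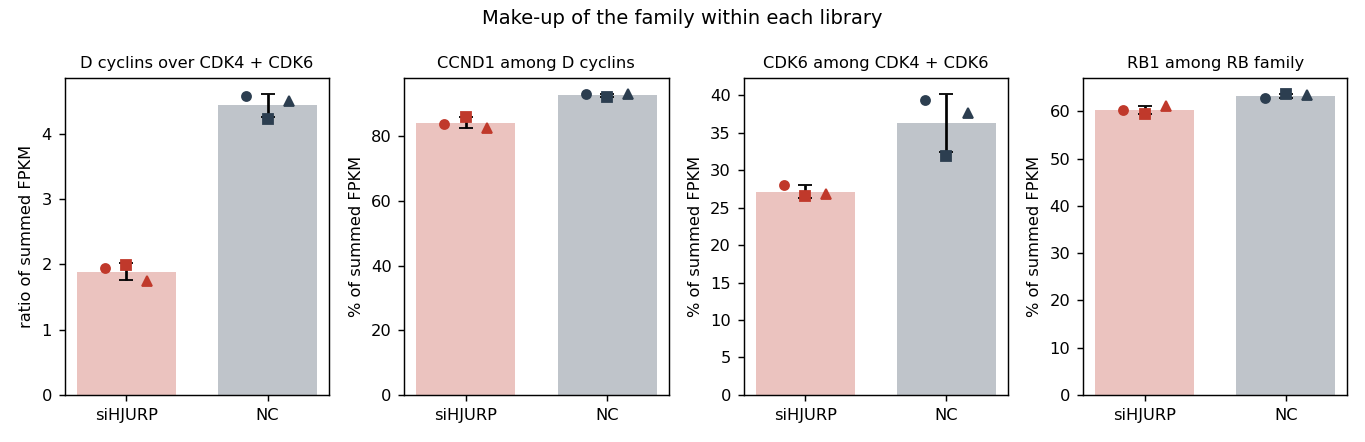
Make-up of the G1 gene families within each library: D cyclins per CDK4 plus CDK6 (ratio of summed FPKM), and the percent of summed FPKM from CCND1 among D cyclins, CDK6 among the 2 kinases and RB1 among its family. Points are libraries (circle, square and triangle for replicates 1, 2 and 3), bars the mean of 3 from 0, error bars 1 SD. The ratio is 1.74 to 1.99 in siHJURP and 4.23 to 4.57 in NC libraries, and no panel overlaps between groups.

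Ratios of genes within a library do not depend on how libraries are scaled against each other, and 6 were compared. CCND1 relative to CDK4 was 1.57 log2 units lower in siHJURP cells (siHJURP minus NC, −1.57) and CCND1 relative to CCND3 1.27 lower (−1.27). CDK4 relative to CDK6 differed by 0.61 and CDK2 relative to CDK4 by −0.50. RB1 relative to RBL2 differed by −0.24, also without overlap between the groups. RBL1 relative to RBL2 differed by −0.12 with overlapping groups. In exact two-sided permutation tests the first 5 gave p = 0.1, the smallest that 3 against 3 can give (adjusted over 6 ratios, 0.12), and RBL1 over RBL2 gave p = 0.2 (adjusted 0.2), so none could pass 0.05.

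The surrounding pathway was followed in 8 lists of 80 genes, grouped by role. Of the 77 tested, 37 did not pass, 33 fell and 7 rose. Over all genes tested, 20.3% were called lower and 17.6% higher, and each list below is to be read against those shares. Both shares were larger in the separate fit of the 7635 genes with a mean of at least 5 FPKM (2192 lower and 1663 higher). The median log2 fold change of the 77 was −0.11, against −0.01 over all genes. Under TPM 26 fell and 12 rose, and under voom 31 fell and 12 rose. Of the 40 genes called, 29 were called whichever of the 6 libraries was left out. All adjusted p-values in the next paragraphs come from the same limma fit.

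**Figure D4:**
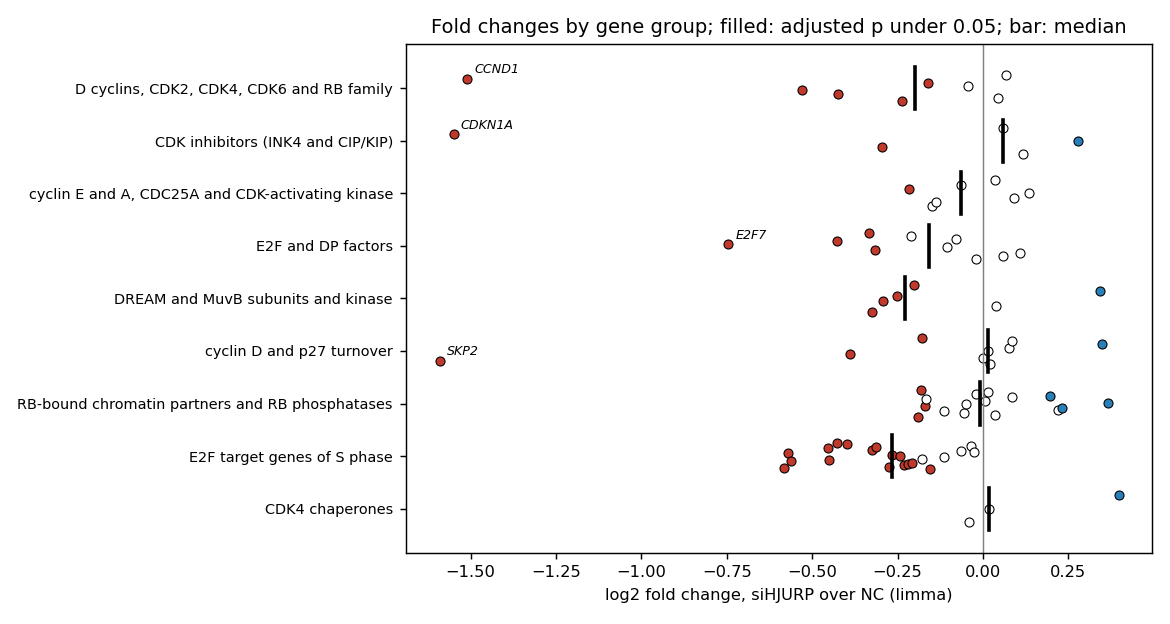
Log2 fold change, siHJURP over NC, of each tested gene (horizontal axis, limma) in the G1 genes and the 8 lists around them. Filled points passed an adjusted p of 0.05 (red lower, blue higher in siHJURP), open points did not, and the vertical bar is the median of the group. CCND1, CDKN1A and SKP2 lie near −1.5, and most S phase genes lie left of 0 (median −0.27).

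Of 7 CDK inhibitors, 5 were tested. CDKN1A and CDKN1C fell, CDKN2C rose and 2 did not pass (median log2 fold change 0.06). p21 (CDKN1A), which inhibits CDK2 and helps assemble cyclin D complexes, was 3.89-fold lower by mean FPKM with siHJURP, against 2.87-fold for CCND1. CDKN1A was at 1.99 ± 0.20 FPKM in siHJURP and 7.75 ± 0.52 FPKM in NC cells (log2 fold change −1.55, adjusted p = 2.58e-05). That log2 fold change is on log2(FPKM + 1), which understates the change of low genes. The INK4 protein p18 (CDKN2C), a direct inhibitor of CDK4 and CDK6, rose (0.28, adjusted p = 0.0235), and p57 (CDKN1C) fell (−0.29, 0.0322). The p18 call was lost when any 1 of 4 libraries was left out (adjusted p up to 0.0754). The p57 call was lost when any 1 of 5 libraries was left out (up to 0.0862) and with TPM (0.0517). p27 (CDKN1B) and p19 (CDKN2D) had 9.83 ± 0.68 and 7.69 ± 0.88 FPKM in siHJURP cells, against 9.40 ± 0.75 and 7.02 ± 1.1 FPKM in NC cells, and did not pass. CDKN2A had 1 read in all, in an NC library, and CDKN2B none, and neither was tested.

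Among genes that set how long cyclin D and p27 last, 3 of 9 fell, 1 rose and 5 did not pass (median 0.01), and 4 of 9 called is near the 37.9% called over all genes. SKP2, the F-box protein that marks p27 for degradation, fell to 6.39 ± 0.18 FPKM in siHJURP cells, against 21.3 ± 0.97 FPKM in NC cells (log2 fold change −1.59, adjusted p = 7.16e-06). Its cofactor CKS1B fell as well (−0.39, 0.00628), though CKS1B has 6 annotated pseudogenes that may share its reads. FBXO4, a cyclin D1 F-box protein, rose (0.35, 0.023), and SKP1, the adaptor of these ligases, fell (−0.18, 0.038). The FBXO4 call was lost when any 1 of 4 libraries was left out (adjusted p up to 0.076) and the SKP1 call when any 1 of 5 was left out (up to 0.102) and with TPM (0.0797). AMBRA1, the main receptor for cyclin D degradation, was at 5.99 ± 0.47 FPKM in siHJURP and 5.99 ± 0.16 FPKM in NC cells (adjusted p = 0.999).

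Cyclin E, cyclin A, CDC25A and the CDK-activating kinase, which act on CDK2, held 7 genes, of which 1 fell and 6 did not pass (median −0.07). The 1 was CCNE2, at 2.24 ± 0.19 FPKM in siHJURP and 2.76 ± 0.076 FPKM in NC cells (log2 fold change −0.22, adjusted p = 0.0475), and its call was lost in each fit that left out 1 library (adjusted p up to 0.139). CCNE1 and CCNA2 had 7.81 ± 0.61 and 64.7 ± 2.0 FPKM in siHJURP cells, against 7.60 ± 0.52 and 60.7 ± 2.4 FPKM in NC cells. CCNA2 and CDK7 did not pass here (0.09 and 0.14, adjusted p = 0.14 and 0.0515) but were called higher with TPM (0.15 and 0.20, adjusted p = 0.0186 and 0.0129).

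Downstream, the E2F and DP factors had 4 of 10 that fell and 6 that did not pass (median −0.16). E2F7, a repressor of E2F genes, fell most, to 19.5 ± 2.0 FPKM in siHJURP cells, against 33.4 ± 4.4 FPKM in NC cells (log2 fold change −0.75, adjusted p = 0.00195). The activators E2F1 (−0.32, 0.00183) and E2F3 (−0.33, 0.00155) fell, and so did E2F4 (−0.43, 0.000857), the usual partner of p107 and p130. The DREAM complex is formed by p107 and p130 with the MuvB core to silence cell cycle genes. The list for it held 7 genes: core subunits, MYBL2 and the kinase DYRK1A. Of these, 6 were tested, 4 fell, 1 rose and 1, DYRK1A, did not pass (median −0.23). LIN9 (−0.33, 0.00319), LIN52 (−0.29, 0.00817) and LIN54 (−0.20, 0.00856) of the core and MYBL2 (−0.25, 0.00346), which binds the core later in the cycle, fell. RBBP4, a histone-binding subunit shared with other complexes, rose (0.34, 0.000802) and has 6 pseudogenes.

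Of 21 E2F target genes of S phase, 16 fell, none rose and 5 did not pass (median −0.27); 14 to 16 fell under the other scalings. The 4 with the lowest adjusted p were UHRF1, which guides DNA methylation to replicated DNA (−0.57, adjusted p = 8.21e-05), the licensing factors CDT1 (−0.45, 0.000279) and MCM4 (−0.45, 0.000351), and GINS1 of the replicative helicase (−0.58, 0.000762). PCNA, the sliding clamp, was at 92.1 ± 5.2 FPKM in siHJURP and 121.7 ± 6.3 FPKM in NC cells. TK1, RRM2, RFC3, MCM7, POLA1, CDC6, CDC45, MCM5, RRM1 and MCM2 were among the others that fell. CDC45 was called in 2, MCM2 in 3 and RRM1 in 5 of the 6 fits that left out 1 library. MCM3, MCM6, TYMS, GINS2 and RFC2 did not pass, and MCM3 was at 56.7 ± 3.2 FPKM in siHJURP and 57.7 ± 2.3 FPKM in NC cells.

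Chromatin proteins that bind RB, and the phosphatases that remove its phosphates, held 16 genes, of which 3 fell, 3 rose and 10 did not pass, near the shares over all genes tested (20.3% lower, 17.6% higher; median −0.01, positive with TPM and voom). Of the PP1 catalytic subunits, PPP1CB rose (0.37, 0.000667) and PPP1CC fell (−0.19, 0.0113), while PPP1CA was at 72.9 ± 3.4 FPKM in siHJURP and 73.9 ± 4.6 FPKM in NC cells. The SWI/SNF ATPases SMARCA2 (0.23, 0.0145) and SMARCA4 (0.20, 0.015) rose, although SMARCA2 was not called without siHJURP replicate 1 (adjusted p = 0.0516). HDAC1 (−0.18, 0.0199) and DNMT1 (−0.17, 0.0245) fell, and neither was called with TPM (0.0506 and 0.121) or in every fit that left out 1 library. Of the chaperones that fold CDK4, HSP90AA1 rose (0.40, 0.00112), and CDC37 and HSP90AB1 did not pass, although HSP90AB1 was called higher with quantile normalization (0.25, adjusted p = 0.00157).

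By the distance between their log2(FPKM + 1) profiles over the 6 libraries, each taken relative to its NC mean, the 5 protein-coding genes nearest to CCND1, the lowest of the 9 by fold change, were ULBP3 (distance 0.135), SH2B3 (0.205), SIGLEC15 (0.225), ANGPTL4 (0.245) and SKP2 (0.297). SH2B3, for example, was at 11.6 ± 0.30 FPKM in siHJURP and 33.6 ± 3.1 FPKM in NC cells (SD, n = 3 each). Among the genes nearest to RBL2, the highest by fold change, were GCLC (0.0432), PALB2 (0.0467), ACSS1 (0.0484) and QSER1 (0.0535). Nearness says that the values run alike and nothing more.

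With both siHJURP libraries that stood apart left out, siHJURP has 1 library, assumed to vary like the NC group, and 13.9% of 13335 genes were called. CCND1 was then the only one of the 8 called. CCND3 (−0.28, adjusted p = 0.064), CDK2 (−0.35, 0.0574) and CDK6 (−0.51, 0.0628) kept values near those above, and of the pathway genes 13 were called in place of 40, with 6 of the S phase genes lower. Leaving out 1 library at a time ended no call among the 9 genes.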

How the data were processed

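RNA-seq of 3 siHJURP and 3 NC libraries of SKOV3 was used. Per the labels' protocols, libraries were made from Trizol RNA with a NEBNext Ultra RNA kit. The submitters' processing notes name hg38, featureCounts 1.5.0-p3 and HISAT2 2.0.5; strand and FPKM scaling are not given in the sources used here. For each library the authors deposited a table of FPKM. FPKM times gene length gave whole reads in 100% of values (tolerance 0.01 reads). The library size behind the FPKM was 1.02 to 1.03 times the read sum in siHJURP and 0.985 to 0.989 times in NC, so the authors' values had been scaled between libraries.

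The test was limma 3.58.1 (R 4.3.3) on log2(FPKM + 1) for genes averaging 1 FPKM or more (with an intensity trend, Benjamini-Hochberg, two-sided); this scale understates the change of low genes. On simulated data of 13260 genes the fit recovered 100% of 64 log2 changes of 1, 71.6% of 67 of 0.5 and 12.3% of 65 of 0.25, with 7 false calls. Far fewer genes changed in the simulation than were called in the real libraries, which makes the adjusted threshold stricter there. These shares therefore do not give the power of the main fit. Pseudogenes and overlapping genes were taken from GENCODE 29, whose symbols replaced 12 names that were dates. Promoters were from RefSeq. The 9 genes, the lists and the tests were chosen with earlier results of these data known. The text names HJURP, the 9 genes, called list genes (up to 4 per list in full), tested overlapping genes and nearest genes, some of which are not reported here; PMEL, the marker genes and list genes that did not pass were named after their values were seen.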

Additional observations from a re-analysis of the deposited data

How the results depend on the processing

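The 19 alternatives were 2 pseudocounts, 2 filters, 3 scalings, limma without a trend or with robust moderation, a replicate block, voom on whole reads, each library left out, both siHJURP libraries with high interferon-stimulated genes left out, and, chosen after seeing the data, each library's own read total. CCND1 was called in all 19, and CCND3, CDK2 and CDK6 in 18. With siHJURP replicates 1 and 3 left out, 1849 genes were called, 1 of the 8 G1 genes and 13 pathway genes, and CCND3 (−0.28), CDK2 (−0.35), CDK6 (−0.51) and RB1 (−0.18, adjusted p = 0.107, limma) were no longer called; that fit has 1 siHJURP library. RB1 also lost its call with TPM (−0.10), quantile normalization (−0.10) and voom (−0.11). RBL1 changed sign with TPM (0.011), voom (0.0080), own read totals (0.0057) and both libraries left out (0.043). With 1 library left out, 3728 to 4713 genes and 31 to 36 pathway genes were called, and 5 of the G1 genes each time. Of all calls, 53.5% were lower in siHJURP with the deposited FPKM, 40.5% with TPM and with voom, 41.5% with own read totals and 51.8% with median-ratio scaling; TPM moved the median over all genes to 0.05. Voom called 5956 genes. Same-numbered libraries did not deviate together (correlations −0.0116 to 0.0163), so numbers do not pair them; the replicate block called 4527 genes, 36 pathway genes and 5 G1 genes (CCND1 −1.51, adjusted p = 0.000752; RB1 −0.16, 0.0325) and changed no call among the 8. The ratios kept their sign with each library left out.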
